A study of Mus musculus with 6 samples.

Results

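Glycolysis and hypoxia-inducible genes were examined in CD11B+ cells from injured kidneys, as 36 named genes found by their symbols among the 46603 genes of the deposited count table. They comprise 16 enzymes of glycolysis, 3 regulators of its flux, 3 transporters of glucose and lactate, 10 other known targets of the hypoxia-inducible factors (HIFs), and 4 genes for HIF alpha subunits and their prolyl hydroxylases. RNA-Seq was performed on 3 PTEC DN RAR and 3 Cre- control mice, with 1 polyA-selected library per mouse. All were male, 10 to 12 weeks old, and killed on day 3 after bilateral ischemia-reperfusion acute kidney injury (IRI-AKI), made by clamping the vessels of both kidneys for 28 minutes. No uninjured kidney is among these libraries.

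Every mouse carried the Rosa26-LSL-RARaT403X allele, which encodes a truncated, dominant negative retinoic acid receptor behind a Cre-removable stop. PTEC DN RAR mice were PEPCK CRE+ and Cre- control mice PEPCK CRE-. PEPCK-Cre recombines in proximal tubular epithelial cells (PTECs), so the genetic change was directed to PTECs while the RNA came from cells held by CD11B antibody beads. CD11B, the alpha chain of integrin Mac-1, is found on macrophages, monocytes, granulocytes and NK cells. The comparison asks how these genes differed in kidney myeloid cells when RAR signaling was inhibited in the neighbouring epithelium. Since each library is bulk RNA, fewer cells of a type and less RNA per cell cannot be told apart.

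Glycolysis splits glucose into pyruvate, and lactate dehydrogenase turns pyruvate into lactate, so ATP can be made without oxygen. HIF-1alpha and HIF-2alpha (genes Hif1a and Epas1) are marked for destruction by prolyl hydroxylases when oxygen is present. When oxygen is short they pair with ARNT and bind the core motif ACGTG or GCGTG. Between them, though not each alike, they switch on most glycolytic enzymes, Slc2a1 and Vegfa among other genes. Activated monocytes, neutrophils and inflammatory macrophages lean on glycolysis and on HIF-1alpha even in oxygen, whereas the healthy proximal tubule makes glucose and burns fatty acids.

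The libraries held between 29318041 and 46517005 reads counted on genes, and 3 counts, the limit set for detection, were worth 0.0645 to 0.102 CPM, a gene's count scaled to a common library size. All 36 genes passed the filter on low counts, as did 15440 genes in all. Rara, the receptor gene, was at 35.3 to 45.5 CPM in Cre- control and 30.8 to 37.6 CPM in PTEC DN RAR libraries (adjusted p = 0.0628), in cells that PEPCK-Cre is not known to target, so its level checks no label. Of the genes that define the CD11B sort, Itgam was at 1737 to 1995 CPM in Cre- control and at 980.3 to 1366 CPM in PTEC DN RAR libraries (adjusted p = 0.00818), and Itgb2 at 605 to 715 against 515 to 693 CPM (adjusted p = 0.703). Mitochondrial genes took 5.03% to 8.77% of counts in Cre- control and 10.4% to 12.1% in PTEC DN RAR libraries.

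Marker genes of other cells moved with genotype. All 16 proximal tubule markers, all 6 of the thick ascending limb (TAL), all 4 of the distal convoluted tubule and all 8 of endothelium passed the test as higher in PTEC DN RAR mice, and none of these was at 0 in all libraries. Their summed levels were 712 to 924 CPM in Cre- control against 2318 to 3512 CPM for the proximal tubule, 1182 to 1582 against 4500 to 8589 CPM for the TAL, and 76.0 to 116 against 235 to 286 CPM for endothelium. Podocyte markers were higher for 4 of 5 genes and stromal markers for 5 of 6. Among leukocyte lists, 7 of 8 infiltrating monocyte markers were lower, with sums of 3161 to 3634 CPM against 1492 to 1572 CPM, as were 6 of 10 neutrophil markers, with sums of 567 to 974 against 350 to 496 CPM. Of 10 resident macrophage markers 1 was lower and 2 were higher, with sums of 30890 to 36060 against 37270 to 51030 CPM. Cd74 made up much of these sums, with a mean of 9817 CPM in Cre- control and 19600 CPM in PTEC DN RAR libraries, and 7 of the 10 genes did not pass. These values stand beside every result that follows, and their part in the results was not tested.

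**Figure D1:**
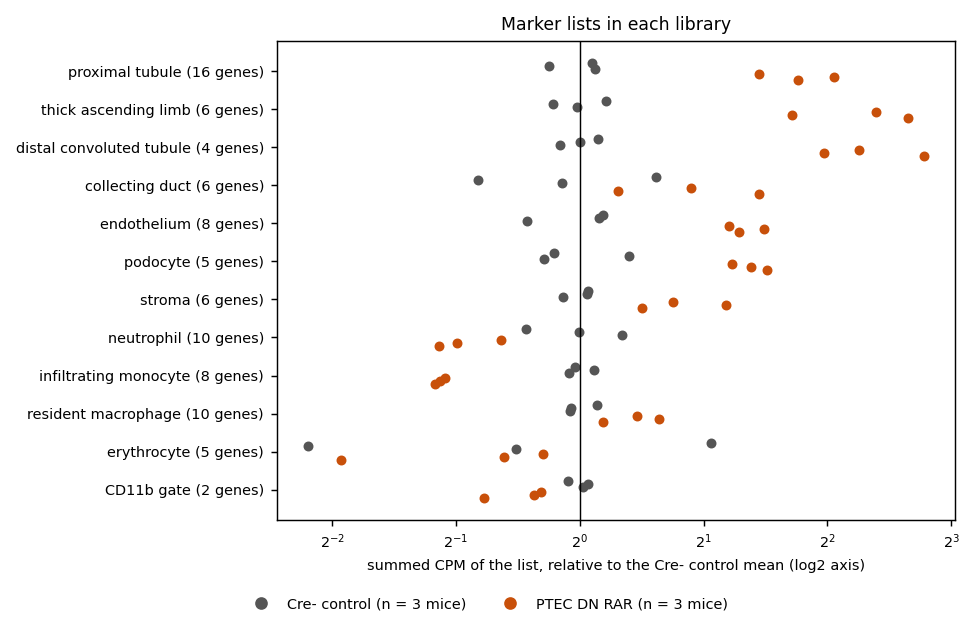
Summed CPM of each marker list in each library, divided by the mean of the 3 Cre- control libraries and drawn on a log2 axis; each point is 1 mouse. Tubule, endothelial and podocyte lists lie to the right in PTEC DN RAR mice, infiltrating monocyte and neutrophil lists lie to the left, and the collecting duct and erythrocyte lists overlap between genotypes.

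More of the 36 genes were lower than higher in PTEC DN RAR mice. With a threshold of 0.05 on the adjusted p of edgeR's quasi-likelihood test, 16 were lower (44.4%), where 17.1% of all genes tested were lower. In the other direction 6 were higher (16.7%), beside 23.6% of all genes, and 14 did not pass. The PTEC DN RAR libraries were all below the Cre- control libraries for 18 of the 36, beside 24.2% of all genes, and all above them for 6, beside 29.2% of all genes. The median log2 fold change of the 36 was -0.34, and that of all genes tested was 0.04.

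The split depended on the scaling of the libraries. Default scaling by TMM sets most genes as unchanged between libraries, and 42% of the calls over all genes were lower. When the libraries were instead scaled on 26 pan-leukocyte genes, which sets the RNA of leukocytes as the reference, the median over all genes moved up by 0.21 to 0.25, and 715 genes were lower and 4946 higher, so that 12.6% of the calls were lower. Under that scaling 7 of the 36 genes were lower, beside 4.63% of all genes, and 7 were higher, beside 32% of all genes. The 7 that were lower under both scalings were Hk2, Hk3, Pkm, Ldha, Slc16a3, Vegfa and Ankrd37. No gene called under TMM changed direction, while the median of the 20 genes that are not enzymes turned from -0.19 to 0.03.

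**Figure D2:**
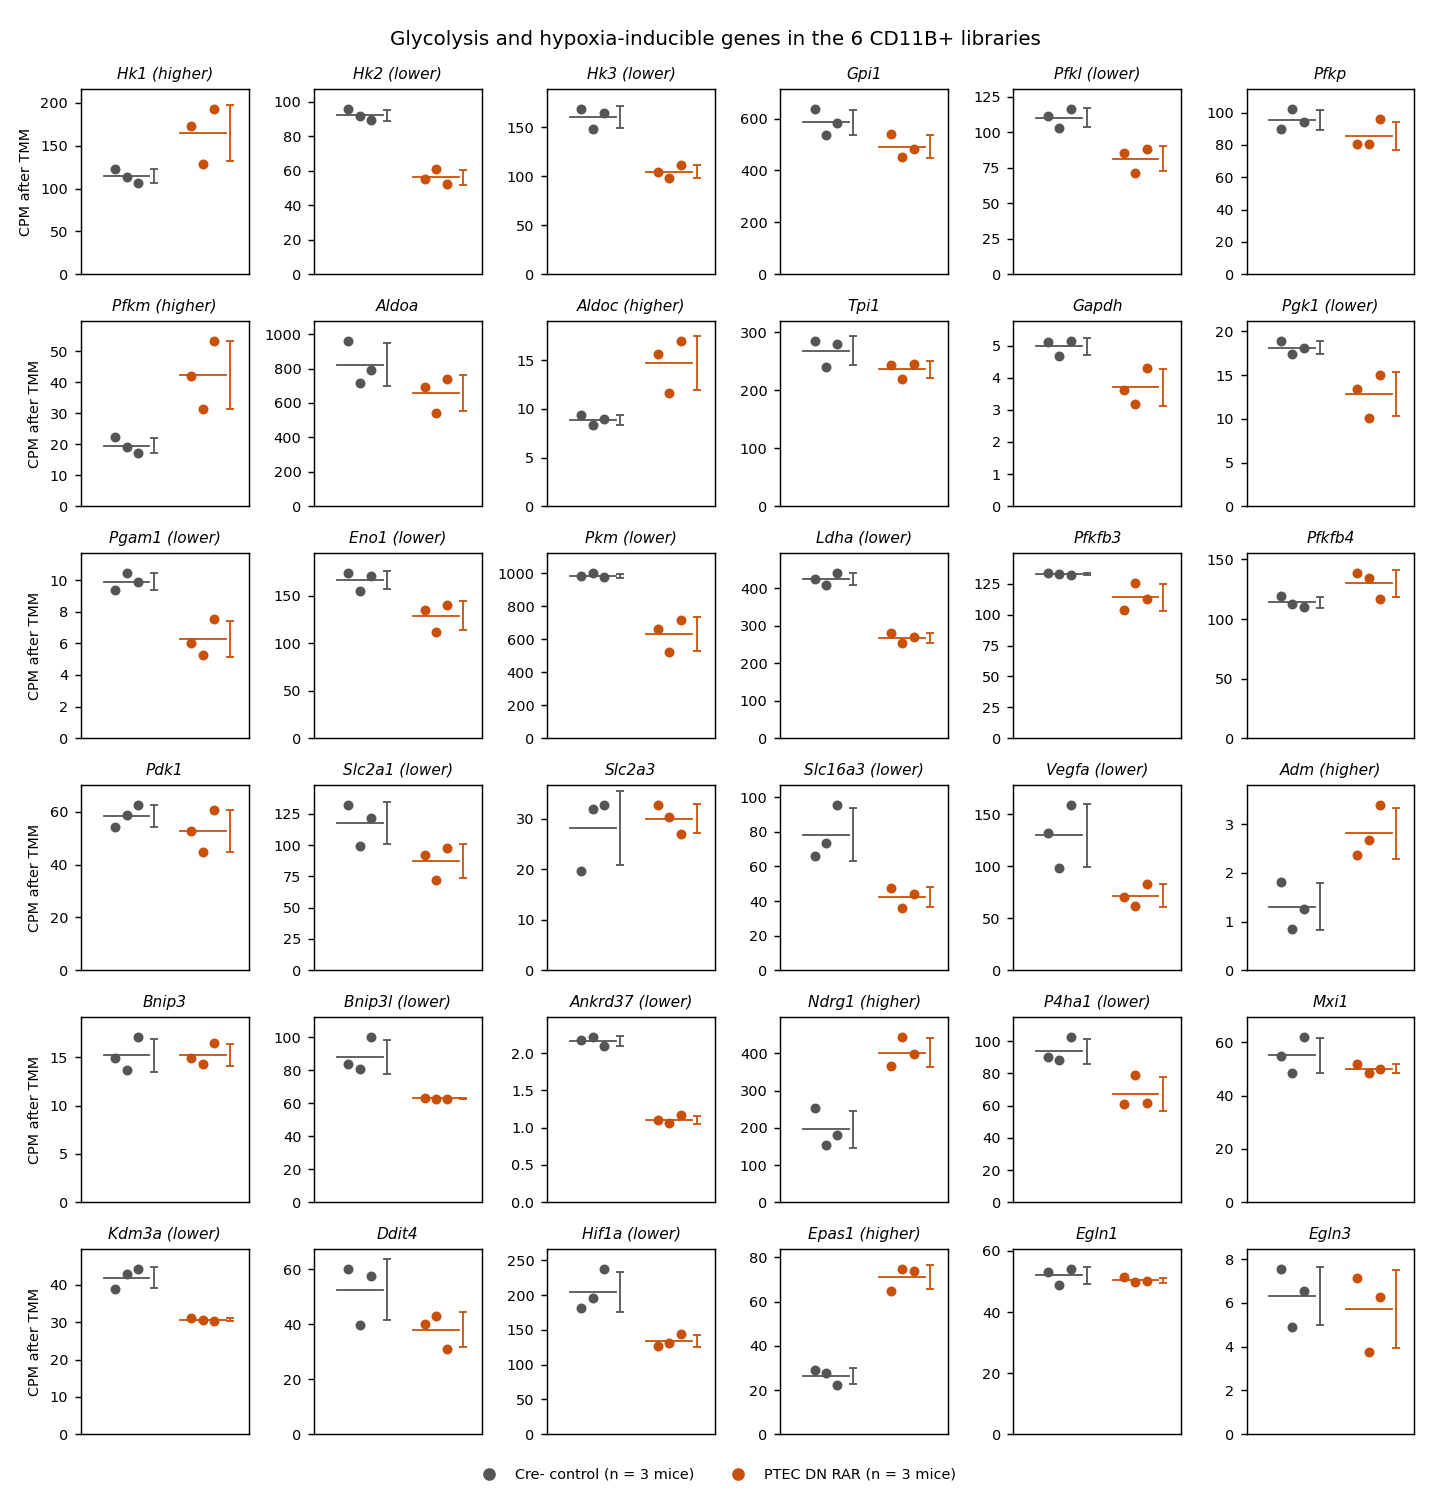
CPM after TMM of each of the 36 genes in each of the 6 libraries, with every axis starting at 0; points are mice, horizontal lines group means and bars SD. Genes whose titles read lower or higher passed an adjusted p of 0.05, and for 12 genes the points of the genotypes overlap.

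**Figure D3:**
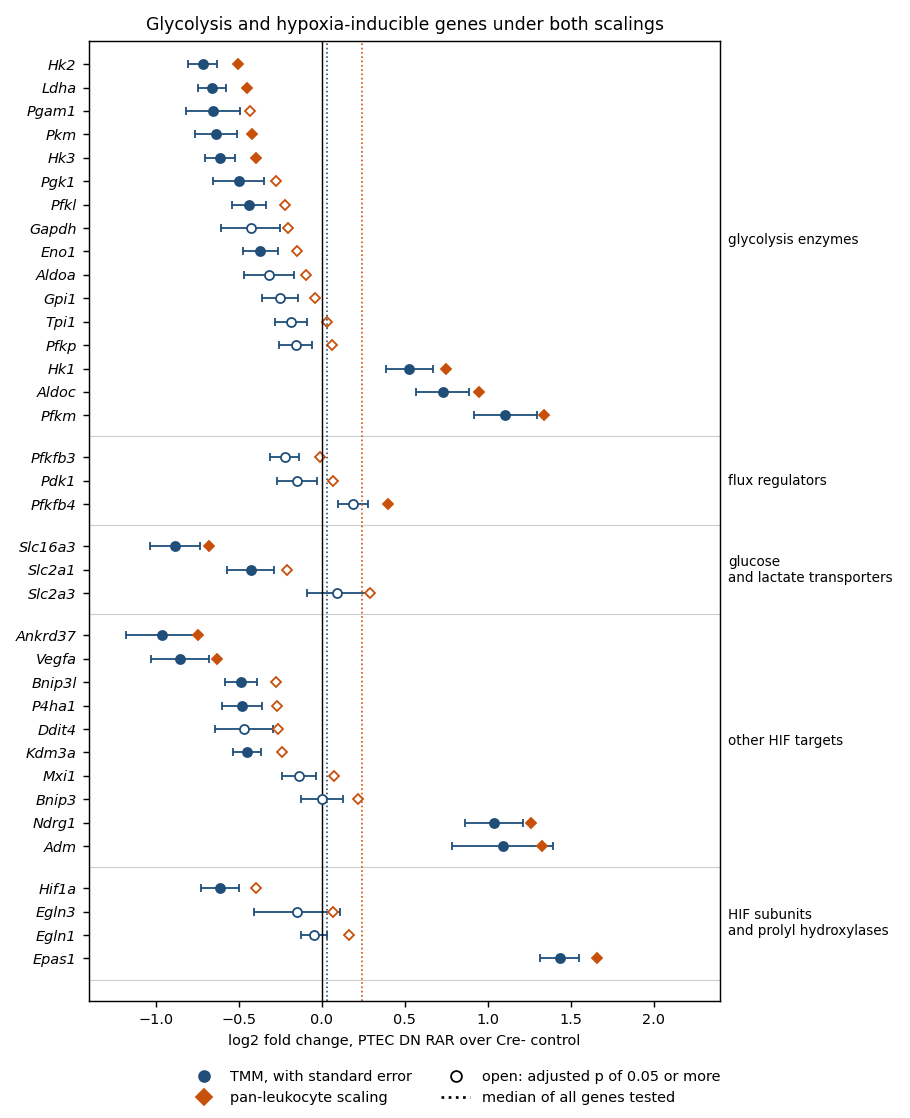
Log2 fold change of each gene, PTEC DN RAR over Cre- control, with TMM (circles, bars are standard errors) and with pan-leukocyte scaling (diamonds); filled symbols have an adjusted p under 0.05 and dotted lines are the medians of all genes tested. Every diamond lies to the right of its circle, and 7 genes stay filled to the left of zero under both scalings.

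In the window from 250 bases before to 50 bases after the annotated start, the HIF core motif ACGTG or GCGTG, searched on both strands, lay in a promoter of 30 of the 32 genes with a sequence entry (93.8%). The entries come from RefSeq on GRCm38.p6, and the other 4 genes, Slc2a3, Bnip3l, Ndrg1 and Epas1, are named only. The motif was in 64.8% of 11060 tested genes with an entry and in 46.7% of 27025 genes in all. The median GC content was 62.8% for the 32 genes, 60.3% for tested genes and 52.8% for all genes, so GC content differs along with the motif share. The motif was in 15 of 15 lower, 4 of 4 higher and 11 of 13 uncalled genes with an entry, so its presence in this window did not separate lower from higher genes. Gpi1 and Tpi1 were the 2 without a match in this window. To show the motif in genes that moved in opposite directions, 4 windows are given 5′ to 3′ on the gene's strand, with both forms of the motif and their reverse complements in capitals. Where matches overlap, the run of capitals is longer than the motif. Hk2, Ldha and Ankrd37 fell and Adm rose. The Hk2 window is chr6:82774405-82774704 on the minus strand with 2 matches, the Ldha window chr7:46845554-46845853 on the plus strand with 7, the Ankrd37 window chr8:45999801-46000100 on the minus strand with 4, and the Adm window chr7:110627407-110627706 on the plus strand with 2.
Hk2: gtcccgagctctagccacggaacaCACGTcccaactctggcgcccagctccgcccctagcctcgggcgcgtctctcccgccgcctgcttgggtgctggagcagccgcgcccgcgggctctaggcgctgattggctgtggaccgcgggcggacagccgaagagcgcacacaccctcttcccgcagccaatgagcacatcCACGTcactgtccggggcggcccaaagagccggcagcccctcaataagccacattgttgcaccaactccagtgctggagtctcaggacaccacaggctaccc
Ldha: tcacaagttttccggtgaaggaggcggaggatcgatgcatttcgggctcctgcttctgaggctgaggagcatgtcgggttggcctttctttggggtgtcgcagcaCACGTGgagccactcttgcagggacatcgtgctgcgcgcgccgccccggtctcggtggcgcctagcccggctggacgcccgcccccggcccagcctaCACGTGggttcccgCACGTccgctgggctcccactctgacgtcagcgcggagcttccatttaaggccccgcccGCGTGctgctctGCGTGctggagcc
Ankrd37: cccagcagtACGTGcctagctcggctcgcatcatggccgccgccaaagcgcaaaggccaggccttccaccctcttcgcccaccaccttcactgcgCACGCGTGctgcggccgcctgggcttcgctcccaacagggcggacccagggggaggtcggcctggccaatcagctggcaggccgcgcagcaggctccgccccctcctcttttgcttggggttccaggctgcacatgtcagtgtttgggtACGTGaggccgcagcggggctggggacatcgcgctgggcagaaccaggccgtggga
Adm: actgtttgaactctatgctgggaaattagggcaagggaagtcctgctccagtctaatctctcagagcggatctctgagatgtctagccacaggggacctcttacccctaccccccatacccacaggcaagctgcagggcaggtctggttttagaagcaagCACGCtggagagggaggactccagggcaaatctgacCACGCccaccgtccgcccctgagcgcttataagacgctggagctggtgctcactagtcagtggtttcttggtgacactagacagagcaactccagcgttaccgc
Ldha and Ankrd37 hold both forms of the motif, Hk2 holds only the ACGTG form and Adm only the GCGTG form. A match in this window is a description of the letters and not evidence that a factor binds there.

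Of the 16 glycolysis enzymes 8 fell (50%, beside 17.1% of all genes), 3 rose (18.8%, beside 23.6% of all genes) and 5 did not pass, with a median log2 fold change of -0.40 under TMM and -0.18 under pan-leukocyte scaling. Under the latter 4 of the 16 were lower, Hk2, Hk3, Pkm and Ldha, beside 4.63% of all genes, and 3 were higher, beside 32% of all genes. Their summed level was 4111, 3672 and 3869 CPM in the Cre- control libraries, given here and throughout in the order of replicates 1, 2 and 3, and 3131, 2599 and 3236 CPM for PTEC DN RAR mice, without overlap. Along the pathway, the enzymes that fell sit at the hexokinase and phosphofructokinase steps and from phosphoglycerate kinase down to lactate dehydrogenase, and the 3 that rose, a share below that of all genes, are isozymes at the hexokinase, phosphofructokinase and aldolase steps.

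Hexokinases trap glucose in the cell as glucose-6-phosphate. Hk2 (ENSMUSG00000000628, chr6:82725025-82774454), the inducible isozyme and a HIF target, was at 95.6, 91.8 and 89.1 CPM in Cre- control and 55.2, 60.9 and 52.3 CPM in PTEC DN RAR libraries. The log2 fold change was -0.72 ± 0.09 (SE) with an adjusted p of 0.000617. Every PTEC DN RAR library was well below every control (coordinates here are on GRCm38), and the fall held under all 14 alternative settings. Hk3 (ENSMUSG00000025877, chr13:55005985-55021385), the isozyme of monocytes and neutrophils, was at 168, 148 and 165 CPM against 104, 98.5 and 111 CPM (-0.61 ± 0.09, adjusted p = 0.00134), again without overlap. Hk1 (ENSMUSG00000037012, chr10:62268855-62379908), the constitutive isozyme of most tissues, went the other way, at 122.8, 113 and 106.5 CPM against 173, 129 and 193 CPM (0.53 ± 0.14, adjusted p = 0.018). Its lowest PTEC DN RAR library, replicate 2, lay just above the highest control. The Hk1 call was lost without Cre- control replicate 2 (adjusted p = 0.0612), Cre- control replicate 3 (0.0925), PTEC DN RAR replicate 1 (0.0569) or PTEC DN RAR replicate 3 (0.0722). Per kilobase of the union of exons, Hk3 had the highest value of these 3 in both genotypes. Its mean was 43.5 CPM per kilobase in Cre- control and 28.4 in PTEC DN RAR mice. That order depends on the length used. The union of exons of Hk1 is 8532 bases and its main transcript 3851, against 3682 and 3219 for Hk3. In CPM not divided by length, Hk1 was above Hk3 in PTEC DN RAR mice, at means of 164.8 and 104.7.

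Glucose-6-phosphate isomerase, Gpi1, did not pass, at 636, 538 and 582 CPM against 541, 451 and 483 CPM (adjusted p = 0.0918), and its groups overlapped. It passed with DESeq2 (adjusted p = 0.0275) and with DESeq2 size factors (0.0492). Phosphofructokinase commits the sugar to glycolysis and is built from liver, platelet and muscle type subunits. Pfkl (ENSMUSG00000020277, chr10:77986947-78010083) fell from 112, 103 and 116 CPM to 85.3, 71.3 and 87.9 CPM (-0.44 ± 0.10, adjusted p = 0.0097), a call lost under pan-leukocyte scaling (-0.22, adjusted p = 0.203). Pfkm (ENSMUSG00000033065, chr15:98092589-98132451), the muscle type, rose from 22.3, 19.1 and 17.3 CPM to 42.2, 31.3 and 53.3 CPM (1.11 ± 0.19, adjusted p = 0.00261). All 3 PTEC DN RAR libraries were above the controls, with replicate 3 highest and replicate 2 lowest. Pfkp did not pass, at 90.1, 102 and 94.2 CPM against 80.6, 80.4 and 95.8 CPM (adjusted p = 0.232), and its fold change of -0.16 turned to 0.06 under pan-leukocyte scaling.

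Aldolase splits the sugar into trioses. Aldoa, the main glycolytic form, was at 958, 714 and 792 CPM against 692, 541 and 741 CPM and did not pass (-0.32 ± 0.15, adjusted p = 0.121). Aldoc (ENSMUSG00000017390, chr11:78322968-78327781), the brain type, was scarce and rose from 9.35, 8.32 and 9.0 CPM to 15.6, 11.6 and 17.0 CPM (0.73 ± 0.16, adjusted p = 0.00763), without overlap. Triosephosphate isomerase, Tpi1, did not pass, at 284, 240 and 280 CPM against 244, 219 and 246 CPM (adjusted p = 0.165), and its fold change of -0.18 turned to 0.03 under pan-leukocyte scaling.

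Near-identical gene copies limit the counts of several enzymes, most of all in the payoff stage of glycolysis, in which ATP is made. Reads that aligned to more than 1 place were left out of the deposited counts and were 42.9% to 47.8% of alignments per library. Stretches of at least 50 bases with at least 97% identity to other annotated genes covered 88.0% of the Gapdh transcript (50 other genes), 85.6% of Eno1, 68.8% of Pgk1, 65.5% of Pkm, 48.7% of Gpi1, 43.1% of Pgam1, 19.3% of Tpi1 and 18.1% of Pfkp, and 0% of Ldha, Aldoa, Aldoc, Pfkl, Pfkm and all 3 hexokinases. Counts of the first 8 are therefore uncertain, and their levels are not comparable with those of other genes.

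With that limit, Gapdh (glyceraldehyde-3-phosphate dehydrogenase) was at only 5.12, 4.66 and 5.13 CPM against 3.61, 3.18 and 4.30 CPM. Its groups did not overlap, and it did not pass (-0.43 ± 0.18, adjusted p = 0.0827) unless PTEC DN RAR replicate 3 was left out (adjusted p = 0.0417). Pgk1 (ENSMUSG00000062070, chrX:106187100-106203699), phosphoglycerate kinase, fell from 18.9, 17.4 and 18.1 CPM to 13.4, 10.1 and 15.0 CPM (-0.50 ± 0.15, adjusted p = 0.0303). The Pgk1 call was lost without Cre- control replicate 1 (adjusted p = 0.0605), Cre- control replicate 3 (0.0604), PTEC DN RAR replicate 1 (0.0641) or PTEC DN RAR replicate 2 (0.0664), and under pan-leukocyte scaling (0.264). Pgam1 (ENSMUSG00000011752, chr19:41911923-41918660), phosphoglycerate mutase, fell from 9.40, 10.4 and 9.88 CPM to 6.04, 5.28 and 7.54 CPM (-0.65 ± 0.16, adjusted p = 0.0126), a call lost under pan-leukocyte scaling (0.122). Eno1 (ENSMUSG00000063524, chr4:150236721-150248879), the ubiquitous enolase, fell from 174, 155 and 171 CPM to 135, 112 and 141 CPM (-0.37 ± 0.11, adjusted p = 0.0231). Its call was lost without Cre- control replicate 3 (adjusted p = 0.0538), without PTEC DN RAR replicate 2 (0.0672) and under pan-leukocyte scaling (0.387).

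Pyruvate kinase and lactate dehydrogenase end the pathway, and Pkm and Ldha fell under every setting tried. Pkm (ENSMUSG00000032294, chr9:59656368-59679375) was at 980.0, 999 and 974 CPM in Cre- control and 660.3, 520 and 717 CPM in PTEC DN RAR libraries (-0.64 ± 0.13, adjusted p = 0.005). The controls lay within a narrow band, and the highest PTEC DN RAR library was far below it. Ldha (ENSMUSG00000063229, chr7:46841475-46855627), which makes lactate and whose promoter window holds the most motif matches of the 4 shown, was at 425, 407 and 440 CPM against 280.2, 254 and 269.9 CPM (-0.66 ± 0.08, adjusted p = 0.00079). These levels correspond to means of 128 and 81.0 CPM per kilobase. The libraries of each genotype lay close together and far from the other genotype.

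Isozymes of the same step were also set against each other within each library, a measure that does not depend on scaling. For 7 of 11 pairs of related genes the log2 ratio of counts was higher in all PTEC DN RAR libraries than in all Cre- control libraries, and for 4 pairs the groups overlapped. Separation of the genotypes was common in these data, as the levels of 24.2% of all single genes were lower and those of 29.2% higher without overlap. No such share was computed for ratios of other genes, and nothing particular to the 11 pairs is read from the count. Each of the 7 had p = 0.1 in a two-sided exact permutation test, the smallest p that 3 mice against 3 can give, and an adjusted p of 0.157 over the 11 pairs, so no pair could pass 0.05 in this design. The log2 ratio of Hk1 to Hk2 was 0.36, 0.30 and 0.26 in Cre- control and 1.65, 1.08 and 1.88 in PTEC DN RAR libraries. That of Pfkm to Pfkl was -2.32, -2.43 and -2.75 against -1.02, -1.19 and -0.72. Aldoc to Aldoa had means of -6.52 ± 0.14 (SD, n = 3) and -5.49 ± 0.05. Hk3 to Hk2, both lower as single genes, differed by only 0.11 with overlap (exact permutation p = 0.4), and Pfkp to Pfkl by 0.28 with overlap (exact permutation p = 0.2), a ratio that the uncounted reads of Pfkp leave uncertain.

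The widest of these differences was between the subunits of lactate dehydrogenase. Ldhb, which favours the use of lactate and is the form of oxidative tissue, was at 112, 68.5 and 79.9 CPM in Cre- control and 265, 219 and 324 CPM in PTEC DN RAR libraries (1.64 ± 0.20, adjusted p = 0.000663). The log2 ratio of Ldhb to Ldha was -1.93, -2.57 and -2.46 in Cre- control and -0.08, -0.22 and 0.26 in PTEC DN RAR libraries, a difference of 2.31. Per kilobase of the union of exons, Ldha made up 70.2% ± 5.1 (SD, n = 3) of the summed Ldha and Ldhb level in Cre- control mice. Its share was 32.4% ± 3.7 in PTEC DN RAR mice. The size of these shares depends on the length used, as the union of exons of Ldha is 3310 bases and its main transcript 1766. By counts, Ldha was above Ldhb in PTEC DN RAR replicates 1 and 2, so no change of the leading subunit is read from the shares.

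Shares at the other steps were compared in the same way. Hk1 took 18.5% ± 1.1 (SD, n = 3) of the 3 hexokinases in Cre- control and 33.6% ± 4.0 in PTEC DN RAR mice. Pfkm took 19.9% ± 2.3 and 40.1% ± 4.0 of phosphofructokinase, a share that the uncounted reads of Pfkp can raise. Length raises it too, as the union of exons of Pfkp is 13401 bases and its main transcript 4145, against 3340 and 2879 for Pfkm. In CPM not divided by length, Pfkm was the lowest of the 3 subunits in both genotypes, at means of 19.6 and 42.25. The size of every share here depends on the lengths used. Eno1 took 74.3% ± 2.9 and 59.3% ± 8.1 of enolase, and Pkm 99.7% ± 0.12 and 98.3% ± 0.72 of pyruvate kinase, shares that the uncounted reads of Eno1 and Pkm can lower. Pklr, the other pyruvate kinase gene, named here after its values were seen, rose (1.79 on the log2 scale, adjusted p = 0.00307).

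Beside these isozymes stand the marker lists. The summed proximal tubule, TAL, distal convoluted tubule and endothelial markers were higher in all 3 PTEC DN RAR libraries than in any control, as were Hk1, Pfkm, Aldoc and Ldhb. Among the leukocyte lists, the sums of infiltrating monocyte and neutrophil markers were lower in all 3 PTEC DN RAR libraries, as were Hk2, Hk3, Pkm and Ldha. The resident macrophage sum, of which Cd74 made up much, was higher in all 3.

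**Figure D4:**
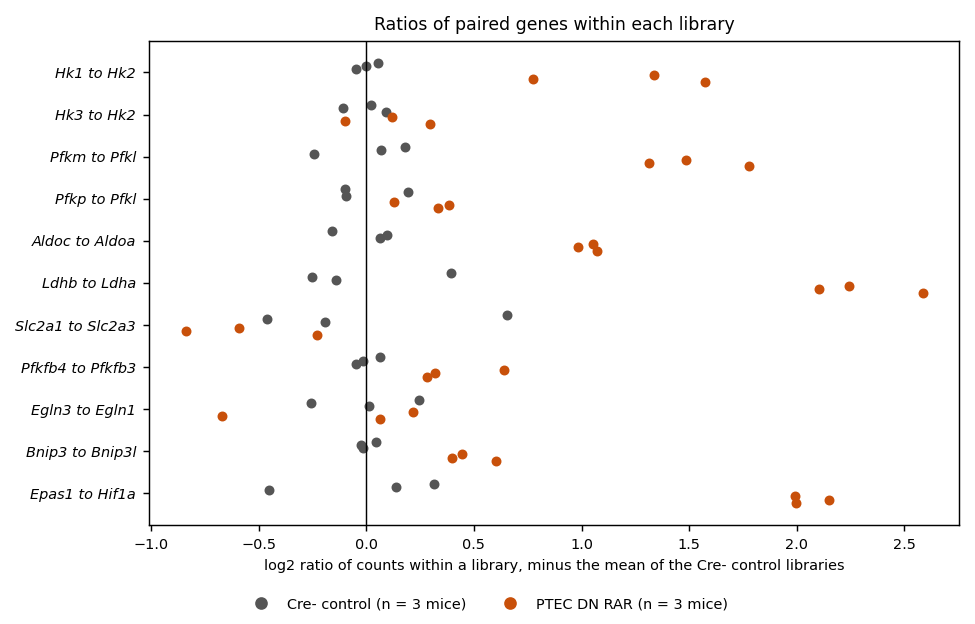
Log2 ratio of the counts of paired genes within each library, minus the mean ratio of the 3 Cre- control libraries; each point is 1 mouse. The PTEC DN RAR points lie to the right of the controls without overlap for 7 pairs, with the widest gaps for Ldhb to Ldha and Epas1 to Hif1a, and overlap for the other 4.

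**Figure D5:**
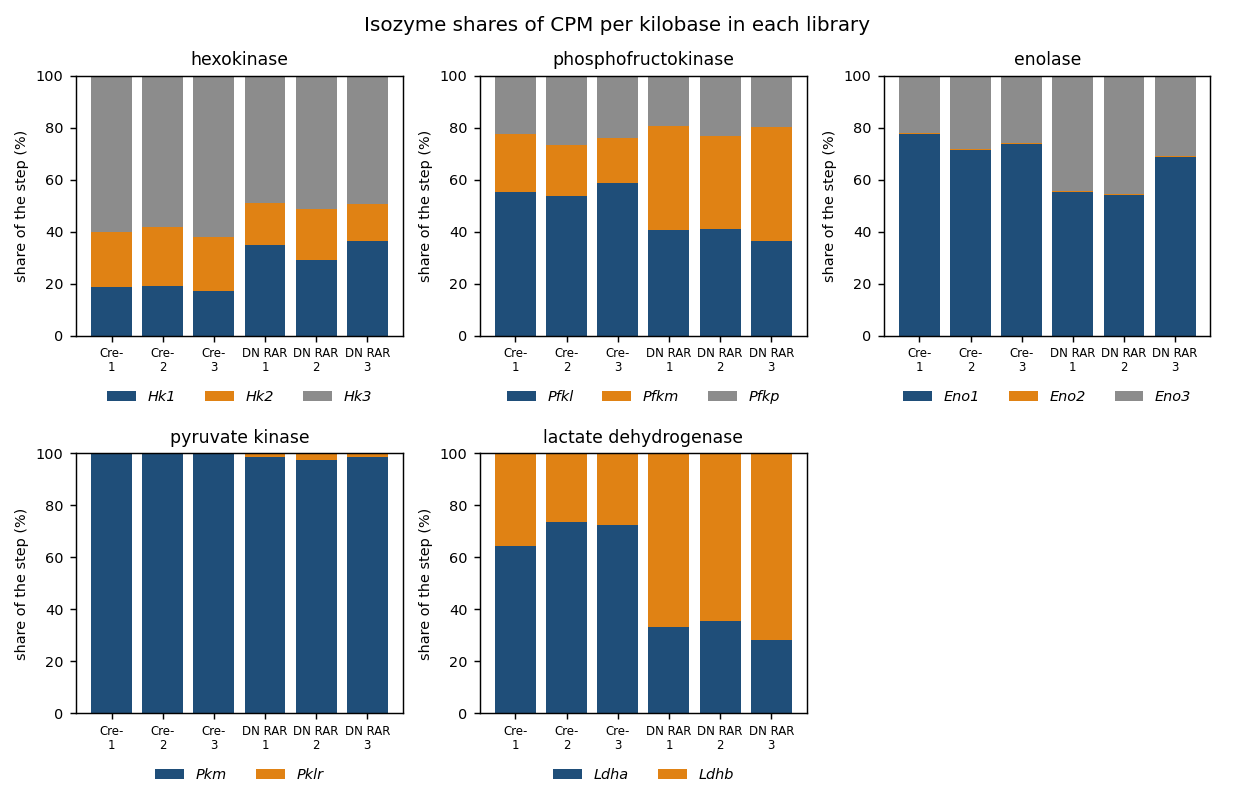
Share of each isozyme in the summed CPM per kilobase of exon at 5 steps, 1 bar per library, with the 3 Cre- control libraries on the left of each panel. Ldha holds 64.4% or more in each Cre- control library and 35.5% or less in each PTEC DN RAR library. Hk1 and Pfkm hold larger shares in the PTEC DN RAR libraries. Uncounted reads of Pfkp, Eno1 and Pkm can shift the shares at their steps, and the size of every share depends on the exon lengths used.

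The 3 regulators of flux did not pass under TMM. Pfkfb3 and Pfkfb4 make fructose-2,6-bisphosphate, the activator of phosphofructokinase, and Pdk1 holds pyruvate back from oxidation in mitochondria. Pfkfb3 was at 134, 133 and 132 CPM against 104, 126 and 112 CPM (-0.22 ± 0.09, adjusted p = 0.0765). Its groups did not overlap, and it passed without PTEC DN RAR replicate 2 (adjusted p = 0.0412), with DESeq2 (0.0377) and with DESeq2 size factors (0.046). Pfkfb4 was at 119, 113 and 109.7 CPM against 138, 134 and 117 CPM (0.19 ± 0.09, adjusted p = 0.128), with overlap, and was higher under pan-leukocyte scaling (0.40, adjusted p = 0.007). The log2 ratio of Pfkfb4 to Pfkfb3 was -0.16, -0.24 and -0.27 in Cre- control and 0.41, 0.09 and 0.06 in PTEC DN RAR libraries, without overlap (exact permutation p = 0.1). Pdk1 was at 54.4, 58.7 and 62.5 CPM against 52.8, 44.8 and 60.8 CPM (adjusted p = 0.344).

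Of the 3 transporters 2 fell (66.7%, beside 17.1% of all genes) and none rose (beside 23.6% of all genes), and 1 was lower under pan-leukocyte scaling, beside 4.63% of all genes. Slc16a3 (ENSMUSG00000025161, chr11:120948480-120960868), the exporter of lactate known as MCT4, was at 66.3, 73.7 and 95.4 CPM in Cre- control and 47.4, 35.98 and 44.2 CPM in PTEC DN RAR libraries (-0.88 ± 0.15, adjusted p = 0.00287), without overlap and under every setting. Slc2a1 (ENSMUSG00000028645, chr4:119108711-119137983), the glucose transporter GLUT1, fell from 132, 99.1 and 122 CPM to 92.3, 72.3 and 97.8 CPM (-0.43 ± 0.14, adjusted p = 0.0399). The highest PTEC DN RAR library was just below the lowest control. The Slc2a1 call was lost without Cre- control replicate 1 (adjusted p = 0.102), Cre- control replicate 3 (0.0824), PTEC DN RAR replicate 1 (0.0683) or PTEC DN RAR replicate 2 (0.111), and under pan-leukocyte scaling (0.327). Slc2a3, the high-affinity transporter GLUT3, did not pass, at 19.7, 32.0 and 32.7 CPM against 32.7, 30.4 and 26.9 CPM (adjusted p = 0.707).

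Among the 10 other HIF targets 5 fell (50%, beside 17.1% of all genes), 2 rose (20%, beside 23.6% of all genes) and 3 did not pass. Under pan-leukocyte scaling 2 were lower, Vegfa and Ankrd37, beside 4.63% of all genes. Vegfa (ENSMUSG00000023951, chr17:46016993-46032369), the main growth factor of blood vessels, was at 132, 98.2 and 159 CPM against 70.6, 61.5 and 83.3 CPM (-0.85 ± 0.18, adjusted p = 0.00605). The controls spread widely, yet the lowest of them was above all PTEC DN RAR libraries. Ankrd37 (ENSMUSG00000050914, chr8:45996902-46005707), an ankyrin repeat gene strongly induced by HIF, was at 2.18, 2.21 and 2.09 CPM against 1.10, 1.06 and 1.17 CPM (-0.96 ± 0.22, adjusted p = 0.00851). That is the largest fall of the 36, at a low level, and 26.3% of the Ankrd37 transcript is shared with 2 other annotated genes. Those genes summed to between 31.9 and 50.6 CPM over the libraries, far above Ankrd37 itself, so its counts are uncertain. The falls of Vegfa and Ankrd37 held under all settings tried.

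Bnip3l, P4ha1 and Kdm3a fell by smaller amounts, and each lost its call under pan-leukocyte scaling. Bnip3l (ENSMUSG00000022051, chr14:66985239-67008877), a mitophagy receptor, was at 83.5, 80.4 and 99.9 CPM against 63.2, 62.8 and 62.7 CPM (-0.48 ± 0.10, adjusted p = 0.00541). P4ha1 (ENSMUSG00000019916, chr10:59323296-59373304), a collagen prolyl hydroxylase, was at 90.3, 88.0 and 102 CPM against 60.8, 79.2 and 61.4 CPM (-0.48 ± 0.12, adjusted p = 0.0139), a call lost without PTEC DN RAR replicate 1 (adjusted p = 0.0508). Kdm3a (ENSMUSG00000053470, chr6:71588972-71632990), a histone H3K9 demethylase, was at 38.8, 42.8 and 44.2 CPM against 31.2, 30.6 and 30.3 CPM (-0.45 ± 0.09, adjusted p = 0.00423). With pan-leukocyte scaling their adjusted p values were 0.113, 0.154 and 0.143. Near-identical copies cover 34.9% of the Bnip3l transcript, so its counts are uncertain. For Bnip3l and Kdm3a the 3 PTEC DN RAR libraries were nearly equal, and none of the 3 genes overlapped between genotypes.

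Adm and Ndrg1, both well-known HIF targets, rose. Adm (ENSMUSG00000030790, chr7:110627661-110629820), which encodes the vasodilator adrenomedullin, was at 1.82, 0.839 and 1.27 CPM in Cre- control and 2.37, 2.69 and 3.39 CPM in PTEC DN RAR libraries (1.09 ± 0.31, adjusted p = 0.021). The Adm call was lost without Cre- control replicate 2 (adjusted p = 0.0635), Cre- control replicate 3 (0.0778) or PTEC DN RAR replicate 3 (0.073). Ndrg1 (ENSMUSG00000005125, chr15:66929318-66969640), a stress-response gene of many epithelia, was at 252, 154 and 181 CPM against 365, 443 and 398 CPM (1.04 ± 0.17, adjusted p = 0.00243), and it rose under every setting. Near-identical copies cover 19.6% of the Ndrg1 transcript. Neither gene overlapped between genotypes.

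The other 3 targets did not pass. Bnip3, the paralog of Bnip3l, was at 14.9, 13.6 and 17.1 CPM against 14.9, 14.3 and 16.5 CPM, a log2 fold change of 0.00 ± 0.13 (adjusted p = 0.994). Near-identical copies cover 94.2% of the Bnip3 transcript, which with those of Bnip3l makes the ratio of the pair uncertain. The log2 ratio of Bnip3 to Bnip3l was without overlap, at -2.49, -2.56 and -2.55 against -2.09, -2.13 and -1.93 (exact permutation p = 0.1). Mxi1, an antagonist of MYC, was at 54.8, 48.6 and 61.8 CPM against 51.9, 48.4 and 49.9 CPM (adjusted p = 0.305). Ddit4, an inhibitor of mTORC1 also called REDD1, was at 59.9, 39.8 and 57.6 CPM against 40.0, 43.1 and 30.9 CPM (-0.47 ± 0.17, adjusted p = 0.0607), with overlap through Cre- control replicate 2, without which it passed (adjusted p = 0.0114). It also passed with DESeq2 (0.0188), with no filter (0.0155) and with DESeq2 size factors (0.0422).

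The HIF alpha subunits moved in opposite directions. Hif1a (ENSMUSG00000021109, chr12:73901375-73947530) was at 182, 196 and 237 CPM in Cre- control and 127, 131 and 144 CPM in PTEC DN RAR libraries (-0.61 ± 0.11, adjusted p = 0.00385). Its fall did not pass under pan-leukocyte scaling (-0.40, adjusted p = 0.0599). Epas1 (ENSMUSG00000024140, chr17:86753700-86833410), the gene for HIF-2alpha, was at 29.0, 27.7 and 22.3 CPM against 65.0, 74.6 and 74.0 CPM (1.43 ± 0.12, adjusted p = 0.000198), the largest rise of the 36 and one that held under every setting. Per kilobase of exon, Hif1a was at a mean of 34.8 and Epas1 at 4.71 CPM per kilobase in Cre- control mice, and they were at 22.7 and 12.7 in PTEC DN RAR mice.

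The log2 ratio of Epas1 to Hif1a was -2.65, -2.82 and -3.41 in Cre- control and -0.97, -0.81 and -0.97 in PTEC DN RAR libraries, a difference of 2.05 (exact permutation p = 0.1). Epas1 is a marker of endothelium and of some stromal cells as well as a gene of macrophages, and the endothelial marker sum was 116, 113 and 76.0 CPM in Cre- control and 235, 286 and 248 CPM in PTEC DN RAR libraries. The part of endothelial RNA in the Epas1 level was not tested. HIF protein is set mainly by degradation, which these RNA counts do not measure.

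The prolyl hydroxylases that mark HIF for degradation did not pass. Egln1 (PHD2), the main oxygen sensor, was among the steadiest of the 36 under TMM, at 53.1, 48.9 and 54.0 CPM against 51.4, 49.8 and 50.03 CPM (-0.05 ± 0.08, adjusted p = 0.674), and at 0.17 under pan-leukocyte scaling. Egln3 (PHD3), itself induced by HIF, was at 7.53, 4.90 and 6.53 CPM against 7.14, 3.75 and 6.25 CPM (-0.15 ± 0.26, adjusted p = 0.676). The log2 ratio of Egln3 to Egln1 overlapped between genotypes (exact permutation p = 0.8).

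Of 30 further genes of sugar and pyruvate handling, 5 were lower (16.7%, beside 17.1% of all genes), 13 were higher (43.3%, beside 23.6% of all genes) and 12 did not pass. Their median log2 fold change was 0.37. Under pan-leukocyte scaling 2 were lower and 15 higher, where 4.63% and 32% of all genes were. Among the rises were those of Pgam2, the muscle type mutase (4.52 to 26.8 CPM, mean of 3, 2.56 on the log2 scale, adjusted p = 0.000861), and of the fructose and glucose transporters Slc2a5 (2.04, adjusted p = 0.000347) and Slc2a2 (2.04, adjusted p = 0.000304). Slc2a2 and Slc2a5 are known genes of the proximal tubule, whose 16 markers were higher too. Among the falls were Pgd and G6pdx, which make NADPH in the pentose phosphate pathway. Pgd was at 466, 437 and 451 CPM against 293, 234 and 274 CPM (-0.76 ± 0.10, adjusted p = 0.001), and G6pdx at 292, 257 and 252 CPM against 192, 156 and 185 CPM (-0.59 ± 0.11, adjusted p = 0.00358). Neither overlapped between genotypes, and both passed under all 14 alternative settings.

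Of 34 further genes of the HIF pathway and its targets, 7 were lower (20.6%), 10 were higher (29.4%) and 17 did not pass, shares near the 17.1% and 23.6% of all genes. Their median of 0.07 was also near that of all genes, 0.04. Under pan-leukocyte scaling 2 were lower and 14 higher, where 4.63% and 32% of all genes were. Hmox1, heme oxygenase-1, had the largest fall, from 1663, 1100 and 952 CPM to 526, 292 and 532 CPM (-1.46 ± 0.27, adjusted p = 0.00372). Plin2, a lipid droplet coat protein, fell from 441, 329 and 360.0 CPM to 165, 152 and 219 CPM (-1.08 ± 0.16, adjusted p = 0.00149). Both genes answer to other signals besides HIF, among them heme and fatty acids. Among the rises were Car12, a carbonic anhydrase of the cell surface (1.88, adjusted p = 0.000778), and Rragd, a GTPase of the mTORC1 pathway (1.35, adjusted p = 0.00104). These 4 passed under all 14 alternative settings.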

How the data were processed

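RNA-Seq counts came from CD11B+ cells of 3 PTEC DN RAR and 3 Cre- control mice, grouped by the labelled genotype. The authors deposited raw counts of reads per Ensembl gene. Per the submitters' processing notes these were made with STAR 2.5.0a and HTSeq 0.6.1 on GRCm38, and edgeR and limma are named there with no role. Of 46612 gene lines, 9 repeated lines were collapsed. Multi-mapped reads were not counted. Labels do not say more of the mice than genotype and replicate number, so p-values measure the spread between these 3 libraries a group.

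The filter was filterByExpr, and TMM gave the scaling. Tests were made in R 4.3.3 with edgeR 4.0.16 (glmQLFit, then glmQLFTest), and p-values of 15440 genes were adjusted by Benjamini-Hochberg with a threshold of 0.05. CPM values are TMM-scaled. Levels per kilobase divide by the union of exons in GENCODE M21 (GRCm38), which also gives coordinates. This union can be much longer than the main transcript, so comparisons per kilobase between genes depend on it. Ratios within a library were compared with two-sided exact permutation tests. Alternatives were DESeq2 1.42.0, limma-voom (limma 3.58.1), other filters, other scalings, a replicate block, and leaving out each library. Tests were tried on simulated counts. Python 3.11 with scipy 1.17.1, numpy 2.4.6 and pandas 2.3.3 gave the tables, and matplotlib 3.10.9 the figures.

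The 36 genes, the pathway lists, the marker lists and the pan-leukocyte genes were chosen with earlier results of these data known, and the lists are described by counts with no test. All 36 genes are named. Some genes of the first pathway list are not reported here and are not counted in it. Of the pathway lists, named genes are among the 4 with the largest fold change in each direction past the threshold, and Ldhb is named for its ratio. Library pairs of a genotype differed by more than sampling noise (chi-square per degree of freedom of at least 29.6), so all were kept as separate mice. The floor of 3 counts covers counting error only, while SE and SD include the spread between libraries.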

Additional observations from a re-analysis of the deposited data

How the results depend on the processing

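Each of the 36 genes was tested under 14 alternatives, 504 values in all, of which 451 kept their direction and side of the threshold, 27 lost the call, 12 gained it and 14 changed sign. Of the 22 called genes 11 kept the call under every alternative, namely Hk2, Hk3, Pfkm, Aldoc, Pkm, Ldha, Slc16a3, Vegfa, Ankrd37, Ndrg1 and Epas1, and no called gene changed sign. Pan-leukocyte scaling moved the most: 715 genes (4.63%) were lower over all genes, and 7 of the 36, 4 of the 16 enzymes and 3 of the other 20 were lower. With it the uncalled Pfkp (0.063), Tpi1 (0.032), Pdk1 (0.070), Mxi1 (0.075), Egln1 (0.17) and Egln3 (0.069) turned positive, as this scaling moves every gene up. Bnip3, near 0, turned to -0.035 with DESeq2, -0.024 with no filter and -0.035 with DESeq2 size factors. DESeq2 called 19 lower (52.8%, where 21.2% of all genes were) and 6 higher (16.7%, where 23% of all genes were). Leaving out a library gave 13 to 17 lower and 4 to 6 higher genes among the 36, and 1874 to 2824 lower and 2433 to 3699 higher over all genes (11.7% to 17.7% and 15.2% to 23.2%). When libraries were left out in turn, log2 fold changes lay between -0.11 (without Cre- control replicate 1) and 0.17 for Slc2a3, between -0.11 and 0.046 for Bnip3, and between -0.34 and 0.078 (without PTEC DN RAR replicate 2) for Egln3, and the difference in the log2 ratio of Egln3 to Egln1 between -0.30 and 0.14 (without PTEC DN RAR replicate 2). The labels do not say whether replicate numbers pair mice. Same-numbered libraries correlated at -0.01, 0.21 and 0.03 in their deviations from the group means. Not every library correlated best with its own number, but 3 libraries a group are too few to exclude pairing. With the replicate block 17 of the 36 were lower and 6 higher (47.2% and 16.7%, beside 16.9% and 23.4% of all genes), the 22 called genes were the same, and Gpi1 also passed (adjusted p = 0.0451). In this design the ratios could not pass 0.05. Reads that aligned to more than 1 place, as those from near copies can, were left uncounted at any depth.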
